A study of Mus musculus with 6 samples.

Results

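Axon guidance genes encode the ligands and receptors that steer growing axons, and 71 of them were examined in the cerebral cortex of senescence-accelerated mice. They were taken by gene symbol as the semaphorins, plexins, neuropilins, Eph receptors, ephrins, Slits, Robo receptors, netrins, *Dcc* and the Unc5 receptors, and they were 71 of the 22527 genes named on the array. Of these, 37 encode ligands and 34 encode receptors. RNA of the cortex was read on Affymetrix array strips (Mouse Genome 430 PM) in 3 groups with 2 samples in each. SAMP8 is an inbred strain that ages early, and SAMR1 is a related strain that resists this and served as the normally aging mouse. The methods call the 2 samples of a group biological, while the series description speaks of duplicates for each sample, so that a mean may be over 2 mice or over repeat arrays. The labels give every sample as male and 16 weeks old. The methods give this age for the SAMP8 mice taken into the experiments, so that the mice may have been older when the cortex was taken. The SAMP8 mice of the SAMP8 + STEE group were given sugarcane top ethanolic extract (STEE) by mouth at 20 mg/kg for 30 days and through a further 8 days of behavioral tests. The SAMP8 controls (SAMP8 + Water) and the SAMR1 mice (SAMR1 + Water) received the same volume of water over the same days, and the study gave its mice the thymidine analog BrdU in the drinking water. SAMR1 is a strain of its own and not a littermate control, so that accelerated aging and other genetic differences between the strains cannot be told apart here.

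During development, guidance ligands attract or repel the growth cone at the tip of an axon. Semaphorins signal through plexins, with neuropilins as co-receptors for most of the secreted class, ephrins bind Eph receptor tyrosine kinases on the neighbouring cell, Slits repel through Robo receptors, and netrins attract through Dcc and repel through Unc5 receptors. Many of these genes stay active in the adult cortex, where they take part in the upkeep and remodelling of synapses, and some also act in blood vessels.

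The array reports each gene by 1 or more probe sets, groups of short probes that together measure a transcript. The values are the authors' mean log2 signal of each group, in which a step of 1 is a doubling. The 71 genes were covered by 157 probe sets, with 1 probe set for 23 genes and up to 6 for the others. The brightest probe set of a gene, by its mean over the 3 groups, gave the gene's main value. It lay at or above the median signal of all probe sets, 4.15, for 60 of the 71 genes. The group medians were 4.15 to 4.16. Signals of different probe sets are not on a common scale and were compared only between groups. Because only group means were used, the spread between samples does not enter any difference below, no test was made, and the scatter between probe sets of a gene is the only error shown. A gene was counted as different where its brightest probe set differed by at least 1.2-fold, which is 0.263 on the log2 scale, and each count was read against the share of all genes past the same threshold.

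The 9 marker genes of excitatory cortical neurons all lay above the median signal, but markers of neighbouring brain regions differed between the strains. All 7 markers of striatal projection neurons were at least 1.2-fold higher in SAMP8 controls than in SAMR1, with log2 differences of 0.32 to 0.89. Their summed linear signal was 1389 in SAMR1, 2188 in SAMP8 controls and 2335 with STEE. Markers of the thalamus were lower in 5 of 5, 4 of them past 1.2-fold, and their sum was 597, 422 and 455 in the same order. Markers of the hippocampus were lower in 5 of 6, 4 of them past 1.2-fold, and summed to 98.1, 81.8 and 81.5, with 4 of the 6 below the median signal. Markers of myelinating oligodendrocytes were lower in 7 of 8, 5 of them past 1.2-fold, and summed to 10412, 9157 and 8855. Of the 5 choroid plexus markers, *Ttr* and the dim *Kcne2* were past 1.2-fold and lower, and only *Ttr*, a carrier of thyroid hormone, lay above the median signal, with means of 10.20, 8.24 and 9.33. No marker of astrocytes, microglia or oligodendrocyte precursors passed 1.2-fold between the strains. Of 9 markers of excitatory neurons, 2 were higher and 1 lower past 1.2-fold, with 6 higher and 3 lower in mean. *Vip* was the 1 of 5 interneuron markers past 1.2-fold, and 4 of the 5 had the higher mean. Past 1.2-fold and lower were 1 of 6 endothelial and 1 of 5 meningeal markers, and 4 of each list had the lower mean. The part of these shifts in the guidance genes was not tested, and in bulk tissue fewer cells of a type and less RNA per cell cannot be told apart.

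**Figure D1:**
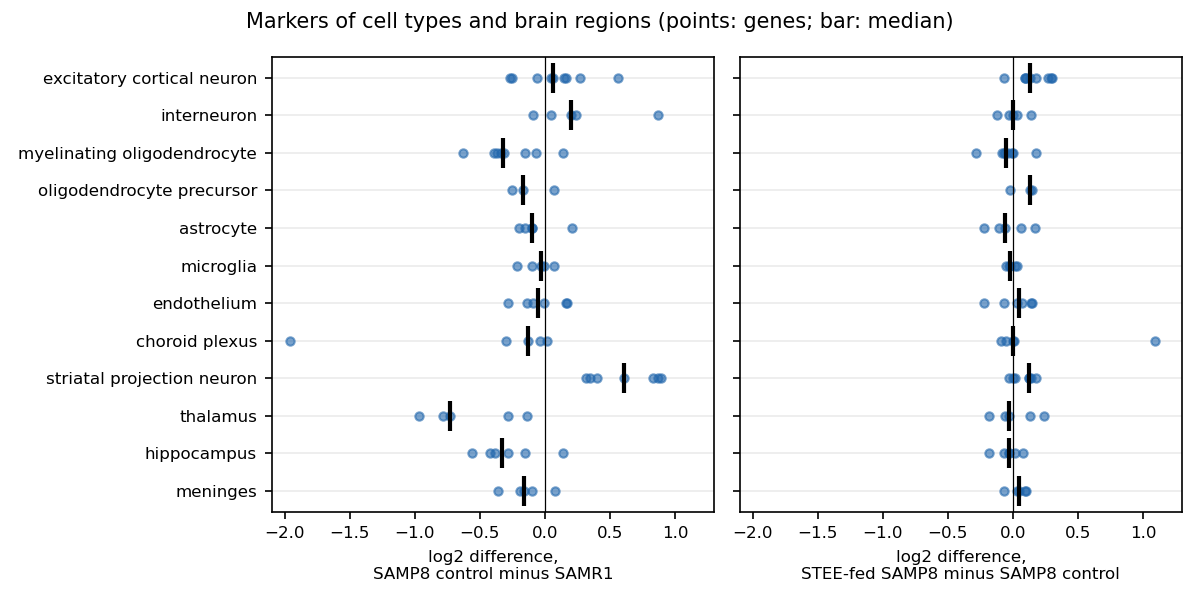
Log2 difference of the authors' group means for the brightest probe set of each marker gene, by cell type or brain region, for SAMP8 control minus SAMR1 (left) and STEE-fed SAMP8 minus SAMP8 control (right). Each point is a gene and each bar the median of its list. Between the strains the striatal median was 0.61 and the thalamic median -0.73, and with STEE these medians were 0.12 and -0.03.

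The first comparison, SAMP8 control vs. SAMR1, asked which genes differ between the early aging and the resistant strain. Of the 71 guidance genes, 8 differed by at least 1.2-fold (11.3%), against 6.86% of all genes on the array. *Sema3c*, *Efnb1* and *Plxnd1* had the higher mean in SAMP8 controls, which is 4.23% of the guidance genes against 3.68% of all genes. *Sema4d*, *Slit1*, *Sema5a*, *Ntng1* and *Ephb2* had the lower mean, which is 7.04% against 3.19%. Among genes at or above the median signal the shares were closer, 13.3% of 60 guidance genes and 10.3% of all. None reached 1.5-fold. At 1.1-fold, 28 guidance genes differed (39.4%), 9 higher and 19 lower, against 24.8% of all genes, of which 12.4% were higher and 12.4% lower. The median log2 difference of the 71 genes was -0.04, with 28 higher, 42 lower and 1 equal, and that of all genes was 0.00.

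**Figure D2:**
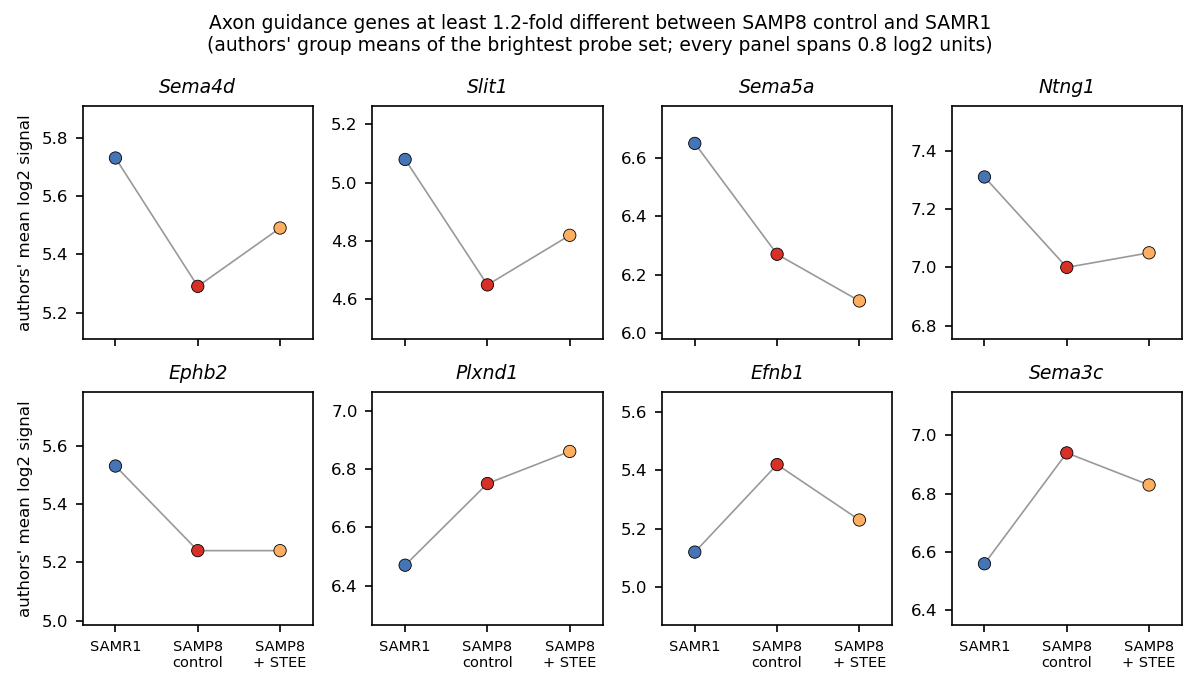
Authors' mean log2 signal of the brightest probe set in SAMR1, SAMP8 control and STEE-fed SAMP8 for the 8 guidance genes at least 1.2-fold different between SAMP8 control and SAMR1. Each point is a group mean, no error is shown because only means were used, and every panel spans the same height. *Sema4d*, *Slit1*, *Sema5a*, *Ntng1* and *Ephb2* step down from SAMR1 to SAMP8 control, and *Plxnd1*, *Efnb1* and *Sema3c* step up.

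Among the 20 semaphorins the largest differences of the strains went both ways. *Sema4d*, a membrane-bound semaphorin of class 4 whose best known receptor is plexin-B1, had mean log2 signals of 5.73 in SAMR1, 5.29 in SAMP8 controls and 5.49 with STEE. The strain difference of -0.44 was 1.36-fold, a size reached by 2.12% of all genes. Its other probe set, below the median signal, differed by -0.05. *Sema5a*, a membrane-bound semaphorin with thrombospondin repeats, had means of 6.65, 6.27 and 6.11, a strain difference of -0.38. That difference rested on 1 of its 4 probe sets, since the other 3 differed by -0.02, 0.04 and 0.05. *Sema3c*, a secreted semaphorin that attracts cortical axons, went the other way, with means of 6.56, 6.94 and 6.83 and a strain difference of 0.38. Its second probe set, at 3.62 in SAMR1, differed by 0.05. For all 3 genes the size of the difference was therefore seen in the brightest probe set alone.

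The promoters of *Sema3c* and *Sema5a* are shown because these genes had strain differences of the same size and opposite sign. The sequences are from RefSeq on GRCm38.p6, the 250 bases before the gene's start on its own strand, with the GC box GGGCGG, found on either strand, in capitals, and overlapping boxes in 1 run. The *Sema3c* window is chr5:17574566-17574815 (+ strand, 78.4% G and C, 3 GC boxes), and the *Sema5a* window is chr15:32244563-32244812 (+ strand, 72% G and C, 5 GC boxes).
Sema3c: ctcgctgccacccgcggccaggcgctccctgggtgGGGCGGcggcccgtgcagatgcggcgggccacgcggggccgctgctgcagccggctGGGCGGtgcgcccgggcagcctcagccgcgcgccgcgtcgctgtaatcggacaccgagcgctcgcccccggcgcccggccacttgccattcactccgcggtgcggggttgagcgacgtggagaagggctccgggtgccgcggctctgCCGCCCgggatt
Sema5a: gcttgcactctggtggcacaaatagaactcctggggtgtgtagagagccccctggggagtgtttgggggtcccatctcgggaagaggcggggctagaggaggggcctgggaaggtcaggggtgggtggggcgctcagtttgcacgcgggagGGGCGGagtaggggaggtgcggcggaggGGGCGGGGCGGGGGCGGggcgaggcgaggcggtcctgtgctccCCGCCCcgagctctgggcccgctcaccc
Both genes thus have GC boxes close to their start. The guidance genes matched 77 windows of 250 bases in 61 genes, and 70.1% of the windows held a GC box. Some windows, as for *Ephb2* and *Ntng1*, lay within the recorded span of the gene and not before its first base. The share with a GC box was 32.7% of all 32851 windows in the table. At or above the median signal it was 69.7% for guidance genes and 56.6% for array genes. The windows of *Efnb1* and *Ephb2*, which also differed between the strains, held no GC box. Other short motifs went the other way. At or above the median signal, TGACG (the CRE core) was in 7.58% of guidance windows and 26.3% of array gene windows. CANNTG (the E-box) was in 48.5% and 57.7%. The letters were only counted, and nothing about binding was measured.

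By class, 6 of the 7 secreted class 3 semaphorins had the higher mean in SAMP8 controls, with a median log2 difference of 0.09. *Sema3b* was the exception at -0.12. *Sema3a*, a repellent that acts through *Nrp1* and plexin-A and that the study names, had means of 6.62, 6.69 and 6.82. Its strain difference was 0.07 by this probe set, 0.29 and -0.07 by the other 2, both of which were below the median signal of 4.15 in mean. *Sema3d*, another repellent of the class, was dim in all groups, at 3.83, 3.99 and 3.83, and its other probe set, at 2.96, 3.62 and 3.38, gave the largest difference of any guidance probe set, 0.66. The membrane-bound class 4 semaphorins were lower in 5 of 6, with a median of -0.115, and those of class 6 were lower in 3 of 4 and equal in 1. The differences within classes were small, and 1 gene passed 1.2-fold in each of classes 3, 4 and 5, against 6.86% of all genes.

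Of the 9 plexins, the signalling receptors for semaphorins, *Plxnd1* alone passed 1.2-fold between the strains (6.86% of all genes did). Its means were 6.47, 6.75 and 6.86, and the difference of 0.28 was just past the threshold. Its ligand *Sema3e* had means of 6.19, 6.34 and 6.39, with differences from 0.00 to 0.15 over 4 probe sets. The class B plexins, receptors for class 4 semaphorins such as *Sema4d*, were lower in 3 of 3 genes with a median of -0.19. *Plxnb2* had means of 5.79, 5.55 and 5.47, and *Plxnb3* had 6.14, 5.95 and 6.09. *Plxnb1* differed by -0.06 by its brightest probe set and by -0.29 by the other. *Plxnc1*, the receptor of *Sema7a*, had means of 7.45, 7.67 and 7.59, and its 6 probe sets ranged from -0.10 to 0.31. *Sema7a* itself, a ligand anchored in the membrane by a lipid, differed by 0.07.

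Both neuropilins, the binding subunits for class 3 semaphorins, had lower means in SAMP8 controls in every probe set. *Nrp1* had means of 6.98, 6.89 and 7.01, and its 4 probe sets differed by -0.05 to -0.16 between the strains. *Nrp2* had means of 6.64, 6.45 and 6.45, and its 3 probe sets differed by -0.10 to -0.42. Neither gene passed 1.2-fold by its brightest probe set.

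**Figure D3:**
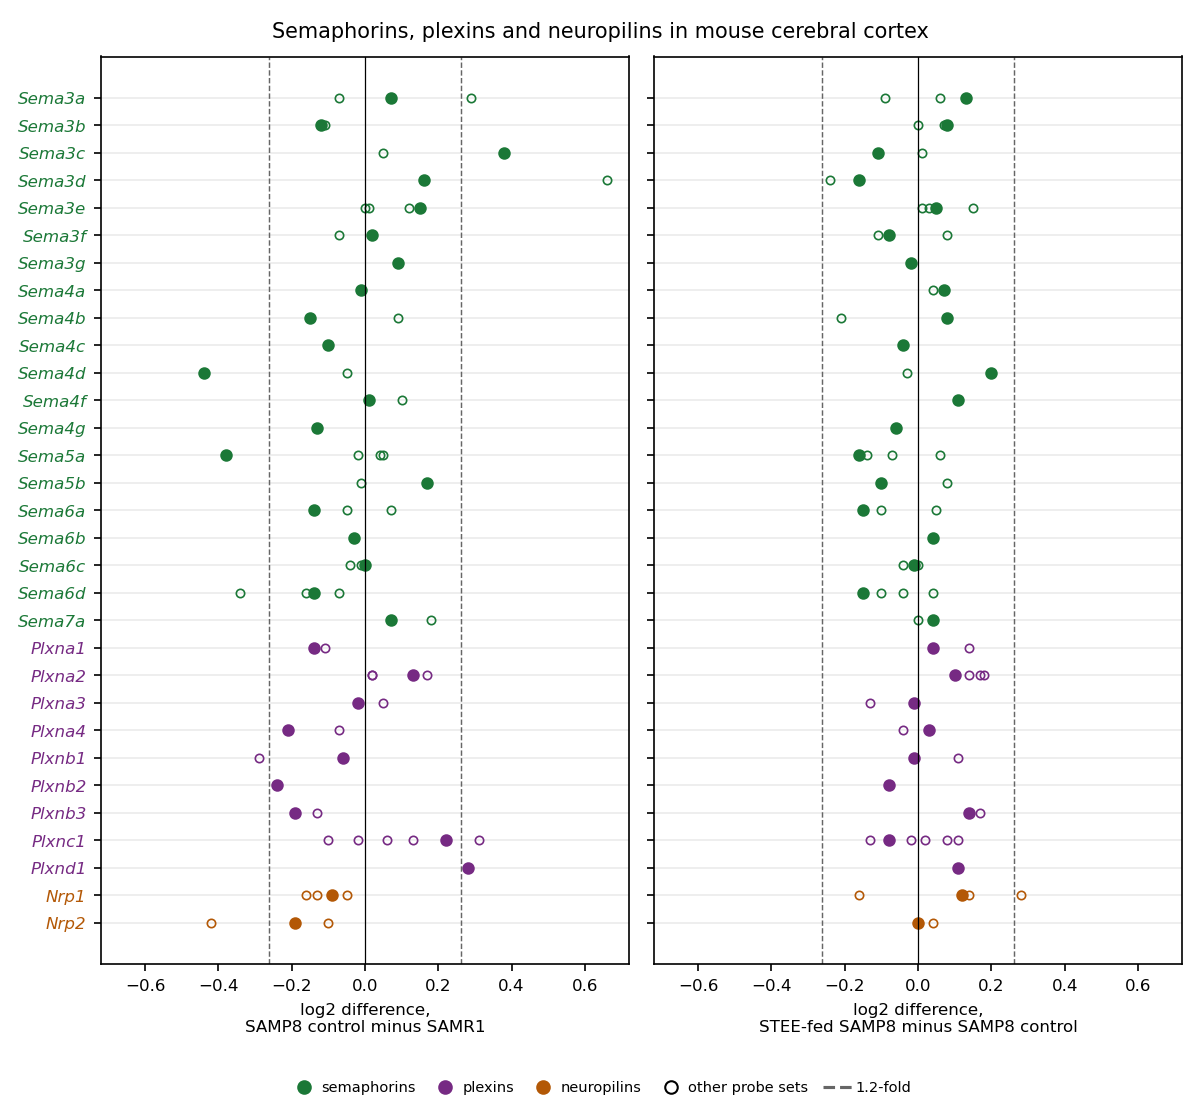
Log2 difference of the authors' group means for semaphorins, plexins and neuropilins, SAMP8 control minus SAMR1 (left) and STEE-fed SAMP8 minus SAMP8 control (right). Filled points are the brightest probe set of each gene, open points its other probe sets, and dashed lines mark 1.2-fold. Filled points lie past 1.2-fold on the left for *Sema3c*, *Sema4d*, *Sema5a* and *Plxnd1*, and on the right for no gene.

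In the Eph and ephrin system both partners sit on cell surfaces and can signal into their own cell. Between the strains 1 of 14 receptors and 1 of 8 ligands passed 1.2-fold, against 6.86% of all genes. *Ephb2*, a receptor that also gathers glutamate receptors at excitatory synapses, had means of 5.53, 5.24 and 5.24. Its strain difference was -0.29, and all 3 probe sets were lower, by -0.15 to -0.29. *Ephb1*, a receptor of the same class with 1 probe set, had means of 6.88, 6.63 and 6.70, a difference of -0.25 that stayed short of 1.2-fold. *Efnb1*, a transmembrane ligand of the EphB receptors, had means of 5.12, 5.42 and 5.23. Its 3 probe sets were all higher in SAMP8 controls, by 0.17 to 0.30. *Efnb3*, a ligand of the same class, was lower instead, at 7.96, 7.77 and 7.64. The ephrin-B ligands thus differed in both directions.

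The EphA receptors, which bind the lipid-anchored ephrin-A ligands, differed less. The 9 genes ranged from -0.06 to 0.23, with 5 higher and 4 lower, and the 5 ephrin-A ligands ranged from -0.05 to 0.06. *Epha3* held the upper end with means of 4.59, 4.82 and 4.59. Its other 3 probe sets were below the median signal and differed by -0.45, -0.22 and 0.03, so that its direction depended on the probe set. *Epha4*, a receptor for both ligand classes, was higher in SAMP8 controls in all 5 probe sets, by 0.01 to 0.37, with a brightest signal of 8.49, 8.54 and 8.66. *Epha7* was likewise higher in all 4, by 0.06 to 0.15.

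*Slit1*, a secreted repellent of the forebrain, had one of the largest differences among the guidance genes. Its single probe set had means of 5.08 in SAMR1, 4.65 in SAMP8 controls and 4.82 with STEE, a strain difference of -0.43 or 1.35-fold, which 2.22% of all genes reached. The other Slits differed less, at 6.58, 6.71 and 6.60 for *Slit2* and 6.23, 6.18 and 6.24 for *Slit3*. Their receptors differed little between the strains. *Robo1* had means of 6.08, 6.06 and 6.05, and *Robo2*, which shares its ligands, had 5.02, 4.94 and 5.05. *Robo3*, a divergent member known for axons that cross the midline, had 5.10, 5.14 and 5.30. *Robo4*, the Robo receptor of blood vessels, was dim at 3.82, 3.65 and 3.86.

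Of the 6 netrins 1, *Ntng1*, passed 1.2-fold between the strains, against 6.86% of all genes. Its product is anchored in the membrane by a lipid and binds a synaptic adhesion protein in place of Dcc, and in the forebrain it is known from the axons that the thalamus sends to the cortex. The means were 7.31, 7.0 and 7.05, and all 4 probe sets were lower in SAMP8 controls, by -0.16 to -0.32. Thalamic markers were lower in the same arrays, *Tcf7l2* at 5.69, 4.72 and 4.66 and *Prkcd* at 6.31, 5.53 and 5.50, and their part in the *Ntng1* value was not tested. *Ntng2*, the related gene, had means of 5.03, 4.83 and 4.83. The secreted netrins did not pass the threshold. *Ntn1*, the classical attractant, had means of 4.49, 4.39 and 4.48. *Ntn4*, found in basement membranes, had 4.77, 4.98 and 4.81, and *Ntn5*, which the study names, had 5.48, 5.33 and 5.56. *Ntn4* was thus the 1 netrin with a higher mean in SAMP8 controls.

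By their brightest probe sets the netrin receptors differed by at most 0.18 in size between the strains. *Dcc*, the attractant receptor, had means of 6.33, 6.43 and 6.43, while its other probe sets differed by 0.00 and -0.08 between the strains. The former of these had means of 5.99, 5.99 and 6.24, higher by 0.25 with STEE. The 4 Unc5 receptors, which mediate repulsion, were all lower in SAMP8 controls by their brightest probe set, with a median of -0.095. *Unc5a* had means of 5.90, 5.72 and 5.92, and *Unc5b* had 5.81, 5.70 and 5.64. The other *Unc5b* probe set, at 5.09, 4.81 and 4.76, differed by -0.28, past 1.2-fold. *Unc5c* had 6.68, 6.60 and 6.60, and its other probe set differed by 0.26 in the opposite direction. *Unc5d* had 7.16, 7.11 and 7.18. None of the netrin receptors passed 1.2-fold by its brightest probe set.

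**Figure D4:**
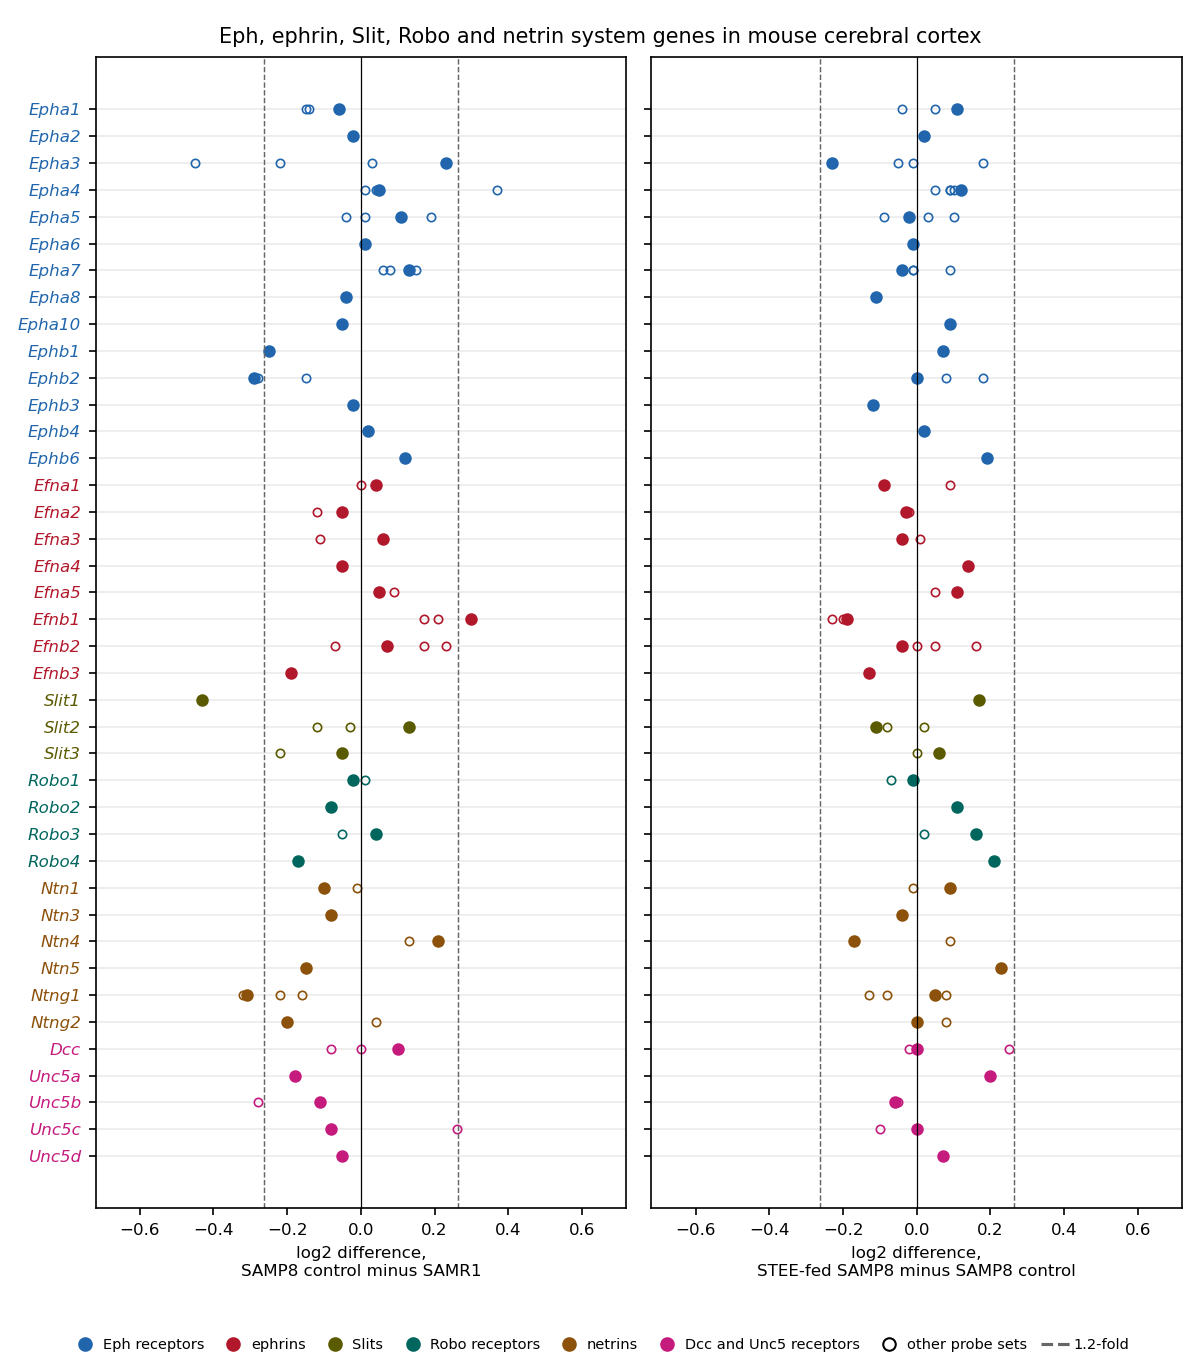
Log2 difference of the authors' group means for Eph receptors, ephrins, Slits, Robo receptors, netrins, *Dcc* and Unc5 receptors, SAMP8 control minus SAMR1 (left) and STEE-fed SAMP8 minus SAMP8 control (right). Filled points are the brightest probe set of each gene, open points its other probe sets, and dashed lines mark 1.2-fold. Filled points past 1.2-fold lie only on the left, for *Ephb2*, *Efnb1*, *Slit1* and *Ntng1*.

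The probe sets of a gene gave a partial check on these differences. They were read on the same arrays, so that their agreement does not measure the spread between samples. Of the 23 guidance genes with at least 3 probe sets, 11 had all of them on the same side in SAMP8 control vs. SAMR1 (47.8%), against 28.1% of the 4899 genes on the array with as many. *Efnb1*, *Epha4*, *Epha7* and *Plxna2* were higher in every probe set. *Epha1*, *Ephb2*, *Nrp1*, *Nrp2*, *Ntng1*, *Sema3b* and *Sema6d* were lower in every probe set. All probe sets of *Epha1* and *Sema3b* lay below the median signal, and the share of all genes was not matched for signal. Of the 157 probe sets, 19 in 17 genes passed 1.2-fold (12.1%), against 7.11% of all probe sets. In 9 of these genes the probe set past the threshold was not the brightest: *Epha3*, *Epha4*, *Nrp2*, *Plxnb1*, *Plxnc1*, *Sema3a*, *Sema3d*, *Sema6d* and *Unc5b*. When the probe sets of a gene were averaged, 3 of 71 genes passed 1.2-fold in place of 8. They were *Slit1* and *Plxnd1*, which have a single probe set, and *Sema3d*, whose probe sets both lay below the median signal. The share of 3 in 71 was below the 4.99% of all genes. The excess between the strains seen by the brightest probe set was thus absent with averaging. The averaged shares were not matched for signal or for the number of probe sets per gene.

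The second comparison, STEE-fed SAMP8 vs. SAMP8 control, asked what the extract did to cortical gene expression in SAMP8. No guidance gene differed by 1.2-fold, 0 of 71, against 2.02% of all genes. The differences lay between -0.23 and 0.23, with 34 genes higher, 32 lower and 5 equal and a median of 0.00. At 1.1-fold, 16 genes differed (22.5%), 9 higher and 7 lower, against 15.2% of all genes, of which 7.73% were higher and 7.44% lower. Among genes at or above the median signal the shares at 1.1-fold were 21.7% of the guidance genes and 17% of all. The median size of the difference was 0.08 for the guidance genes and 0.06 for all genes. Between the strains the same sizes were 0.11 and 0.07. Both comparisons rest on the SAMP8 control arrays, so that a chance deviation of those arrays enters both with opposite sign, and the values are given side by side without a count of shared directions.

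**Figure D5:**
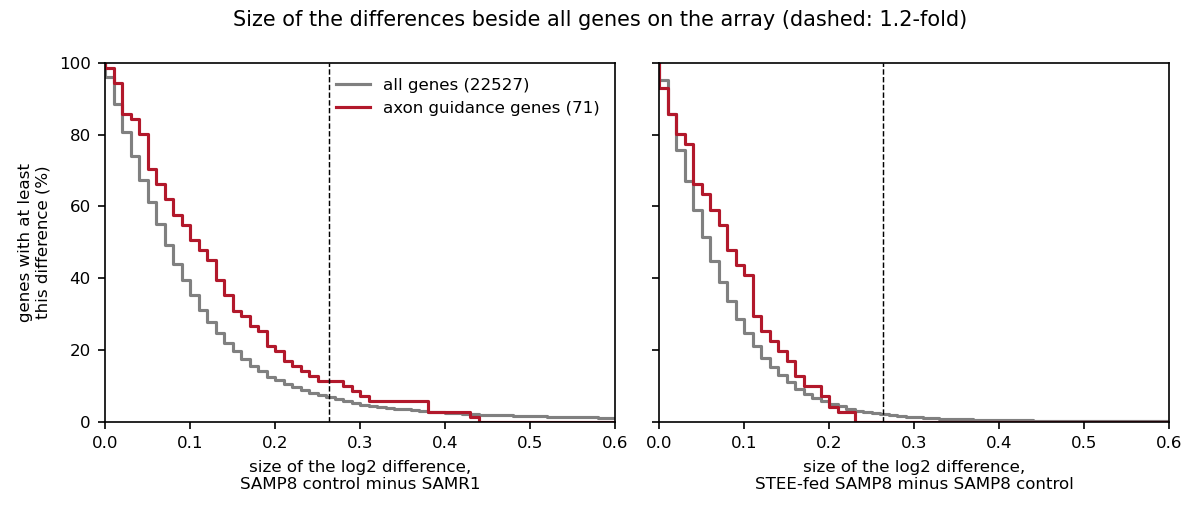
Share of genes (%) whose brightest probe set differed by at least the log2 size on the horizontal axis, for the 71 axon guidance genes (red) and all 22527 genes (grey), SAMP8 control vs. SAMR1 (left) and STEE-fed SAMP8 vs. SAMP8 control (right). The dashed line marks 1.2-fold. At that line the shares are 11.3% and 6.86% on the left and 0% and 2.02% on the right, and no guidance gene lies beyond 0.44 on the left or 0.23 on the right.

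By the brightest probe sets, the largest higher mean with STEE was that of *Ntn5*, a secreted netrin, at 5.33 in SAMP8 controls and 5.56 with STEE. The difference of 0.23 was 1.17-fold, a size reached by 3.63% of all genes, and SAMR1 was at 5.48. *Robo4* differed by 0.21, *Sema4d* and *Unc5a* by 0.20 each and *Ephb6*, an Eph receptor without kinase activity, by 0.19. *Ephb6* had means of 6.05, 6.17 and 6.36. *Slit1* differed by 0.17 and *Robo3* by 0.16. *Plxnb3* differed by 0.14, and so did *Efna4*, a dim ephrin at 3.86, 3.81 and 3.95. *Sema4d* gave 0.20 by its brightest probe set and -0.03 by the other. The Robo receptors were higher with STEE in 3 of 4 genes, with a median of 0.135 and differences of -0.01 for *Robo1*, 0.11 for *Robo2*, 0.16 for *Robo3* and 0.21 for *Robo4*.

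By the brightest probe sets, the largest lower mean with STEE was that of *Epha3*, at 4.82 in SAMP8 controls and 4.59 with STEE. Its other probe sets differed by 0.18, -0.01 and -0.05. *Efnb1* differed by -0.19, and its 3 probe sets were all lower, by -0.19 to -0.23. It was the 1 guidance gene with at least 3 probe sets that was lower in all of them, while *Epha4*, *Plxna2* and *Sema3e* were higher in all of theirs. Such genes were 4 of 23 (17.4%), against 22.7% of all genes with as many probe sets. *Ntn4* differed by -0.17, *Sema3d* and *Sema5a* by -0.16 and *Sema6a* and *Sema6d* by -0.15. *Sema6d*, a membrane-bound semaphorin that binds plexin-A1, had means of 8.51, 8.37 and 8.22. None of these differences reached 1.2-fold.

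Among the 157 probe sets, 1 passed 1.2-fold with STEE (0.637%), against 2.01% of all probe sets. It belonged to *Nrp1*, with means of 6.0, 5.87 and 6.15 and a difference of 0.28. The other *Nrp1* probe sets differed by 0.12, 0.14 and -0.16, so that 3 of 4 were higher. *Sema3a*, the ligand of *Nrp1*, differed by 0.13 with STEE by its brightest probe set and by -0.09 and 0.06 by the others. *Plxna2*, a plexin of the class that joins *Nrp1* in the *Sema3a* receptor, had means of 7.72, 7.85 and 7.95 and was higher with STEE in all 4 probe sets, by 0.10 to 0.18. With STEE no striatal, thalamic or hippocampal marker passed 1.2-fold. Past 1.2-fold were *Ttr*, 1 of 5 choroid plexus markers, higher by 1.09, and *Ermn*, 1 of 8 for myelin, lower at -0.28. Also past it were *Tbr1*, *Cux2* and *Fezf2*, 3 of 9 excitatory neuron markers, higher by 0.29, 0.30 and 0.27. Of all genes 2.02% passed it. In the excitatory list 8 of 9 were higher with STEE, with a median of 0.13, while the choroid plexus median was 0.0. The part of these markers in the guidance genes was not tested.

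The third comparison, STEE-fed SAMP8 vs. SAMR1, follows from the other two and showed how far the treated mice stood from the resistant strain. Of the 71 genes, 9 differed by at least 1.2-fold (12.7%), against 7.38% of all genes. The higher means were 3 (4.23%, against 4.44% of all genes) and the lower 6 (8.45%, against 2.93%). Among genes at or above the median signal the shares were 15% of 60 guidance genes and 11.1% of all. Higher were 5% and 6.95%, and lower 10% and 4.16%. *Sema5a* had the largest difference, -0.54 or 1.45-fold, a size that 1.41% of all genes reached. *Efnb3* and *Plxnb2* were at -0.32, and *Ephb2*, *Sema6a* and *Sema6d* at -0.29. *Plxnd1* was higher by 0.39, *Ephb6* by 0.31 and *Sema3c* by 0.27. *Sema4d*, *Slit1* and *Ntng1* fell just short of the threshold, at -0.24, -0.26 and -0.26. When probe sets were averaged, 5 of 71 genes passed, a share above the 5.67% of all genes.

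Genes that work with these ligands and receptors were read from a list of 67, all found on the array, of other cues and adhesion molecules (18) and of proteins that carry the signal to the cytoskeleton (49). Between the strains 5 were at least 1.2-fold higher and 6 lower, 16.4% of the list against 6.86% of all genes, with a median log2 difference of 0.00. With STEE 4 were higher and 3 lower, 10.4% against 2.02%, with a median of 0.03. Most of the list lay at or above the median signal. Among all genes at that signal the shares were 10.3% between the strains and 2.71% with STEE. The list was chosen with earlier results of these data known. It holds *Rnd1* and *Limk1*, which the study names, so that its shares are not independent support. *Chn1*, a Rac-inactivating protein downstream of *Epha4*, had means of 9.27, 9.80 and 9.87, the largest strain difference in the list at 0.53. *Ngef*, the exchange factor ephexin that EphA receptors engage, had 8.92, 9.25 and 9.25, and *Vav3*, an exchange factor used by Eph receptors, had 4.15, 3.78 and 3.84. *Met*, a receptor that pairs with class B plexins, had 4.48, 4.90 and 5.13. *Nck1*, the adaptor that links guidance receptors to actin, had 5.31, 5.75 and 5.43, and *Ablim3*, an actin-binding protein, had 4.46, 4.79 and 4.51. Regulators of the cytoskeleton were also among the genes with the lower mean in SAMP8 controls. *Dock1*, a Rac activator used by Dcc, had 5.85, 5.47 and 5.46. *Limk1*, the kinase that inactivates cofilin, had 6.51, 6.15 and 6.36, and *Dpysl4*, a collapsin response mediator, had 6.71, 6.33 and 6.53. *Neo1*, a relative of *Dcc*, had 8.13, 7.86 and 7.99, and its ligand *Rgmb* had 6.92, 6.61 and 6.60.

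With STEE, *Flrt3* and *Flrt2*, adhesion molecules that bind Unc5 receptors, were higher by 0.38 and 0.27. *Flrt3* had means of 6.80, 6.66 and 7.04 and *Flrt2* had 7.77, 7.73 and 8.00. *Rnd1*, a small GTPase that binds plexins, was higher by 0.38, with means of 4.70, 4.57 and 4.95. *Farp2*, an exchange factor in *Sema3a* signalling, was higher by 0.39 but lay below the median signal, at 3.32, 3.31 and 3.70. *Nck1*, *Ablim3* and the dim *Cxcr4*, a chemokine receptor at 3.19, 3.38 and 3.0, were the 3 genes at least 1.2-fold lower with STEE. By any size, 22 of the 67 genes had the lower mean with STEE and 39 the higher.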

How the data were processed

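The 6 arrays (Affymetrix Mouse Genome 430 PM strips) measured cerebral cortex RNA, and sample labels gave the 3 groups of 2. Per the submitters' processing notes and the methods, the authors used RMA in Affymetrix Expression Console to summarise the probes and Transcriptome Analysis Console for the comparisons. The deposited tables hold, for 45077 probe sets, group means on the log2 scale with 2 decimals, of which 39383 carry a gene symbol. Their 6 columns of fold changes and p-values are the authors' own comparisons and were not used. The genome build behind the array annotation is not given in the sources used here.

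Differences of group means were computed with Python 3.11.15, numpy 2.4.6 and pandas 2.3.3 and plotted with matplotlib 3.10.9. Rounding moves a difference by at most 0.01. A symbol entry was split at each semicolon, guidance genes were taken by symbol pattern, and the brightest probe set stood for a gene. Named are the genes past 1.2-fold, the largest rise and fall of each family, *Ntn5* and *Sema3a*, *Dcc*, Unc5 and Robo receptors, genes whose probe sets disagree, and others in support, chosen after their values were seen. The members and lists were chosen with earlier results of these data known. Precision is limited by the number of arrays. All 71 symbols were found in the RefSeq gene table and 61 had a promoter sequence. The counting was tested on simulated data. *Drd1* was matched by its older symbol *Drd1a*.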

Additional observations from a re-analysis of the deposited data

How the results depend on the processing

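The counts past 1.2-fold were recomputed under 7 alternatives: the mean over probe sets, thresholds of 1.1-fold and 1.5-fold, centring on the median, a filter at the median signal, no probe sets that may hybridise to several transcripts, and no probe sets with several symbols. With the mean over probe sets the guidance genes past the threshold were 3 between the strains and 5 in STEE-fed SAMP8 vs. SAMR1. Between the strains that share was below the 4.99% of all genes past the threshold by the same reading. In STEE-fed SAMP8 vs. SAMR1 it was above the 5.67% of all genes. At 1.1-fold they were 28 between the strains, 28 in STEE-fed SAMP8 vs. SAMR1 and 16 with STEE against SAMP8 controls, and at 1.5-fold 0 in each. The other settings left each count within 1.5 times of the value in the report. All 8 genes past 1.2-fold between the strains kept their direction with the mean over probe sets, and 2 of the 8 also stayed past the threshold. Of 240 values for 30 named genes, 39 moved by more than the rounding step of 0.01 and 5 changed sign, all with the mean over probe sets: *Epha3* (0.23 to -0.102), *Robo3* (0.04 to -0.005), *Slit2* (0.13 to -0.007) and *Unc5c* (-0.08 to 0.09) between the strains, and *Ntng1* (0.05 to -0.02) with STEE. The cause was not tested. Of 135 family values, 29 moved by more than 0.01 and 6 changed sign.

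No paired analysis was possible because only group means were used, which carry no replicate numbers. For the same reason the fits with a replicate block and without each replicate were not run, and no difference was tested. Signals below the median of 4.15 limit what can be read for 11 of the 71 genes. The limit also holds for genes just above it, such as *Sema4c* at 4.39, 4.29 and 4.25.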
